A study of Mus musculus with 4 samples.

Results

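The cells described here are epithelial cells of the day 30 kidney that carried Vcam1, a surface adhesion molecule kept by proximal tubule cells that do not return to their healthy state after injury, divided by their level of Clu, the gene of the secreted chaperone clusterin. They were chosen by measured values: at least 3 Vcam1 UMIs (unique molecular identifiers, each 1 captured RNA molecule) per 10000, at least 5 per 10000 over the proximal tubule genes Gc, Slc13a1, Lrp2 and Cubn together, and fewer than 20 per 10000 over the myeloid genes Tyrobp, Fcer1g and Ctss. Of 6991 barcodes in the library, 6946 passed the limits on depth and mitochondrial share and 399 met the rule. Of these, 146 had at least 5 Clu UMIs per 10000 and are called Clu-positive, 106 had 0 or 1 Clu UMI and are called Clu-negative, and 147 lay between. The 252 Clu-positive and Clu-negative cells are part of 27230 barcodes in the 4 libraries of the series.

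All 4 libraries came from BAC-CluGFP mice, a transgenic line whose name gives a bacterial artificial chromosome with green fluorescent protein (GFP) as a reporter of Clu, and the labels say that GFP-carrying cells were collected by flow sorting. There was 1 library per group: untreated kidneys, and kidneys 2, 7 and 30 days after 35 min of ischemia and reperfusion (IRI). The labels give neither the number of animals nor their sex or age. Every cell was thus sorted for the reporter, the Clu-negative cells included, and the split by Clu is a split by messenger RNA. The comparison is made within 1 library, so both groups share the sort and the capture, while whether they share animals in equal parts is not known. It has no replicates and no test: each value is a sum of UMIs over cells, and each interval is an exact 95% interval that covers counting error only.

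Proximal tubule cells reclaim filtered phosphate, glucose, amino acids and protein through transporters and endocytic receptors of the brush border, and run on fatty acid oxidation and gluconeogenesis. After ischemia surviving cells lose these features, switch on genes such as Lcn2, Spp1 and keratins, and either redifferentiate or remain in a Vcam1-carrying state known as failed repair. Clusterin binds misfolded protein outside the cell and is a classic marker of tubular injury.

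The Clu-positive cells had a median of 12595 UMIs and 4025 genes, the Clu-negative cells 10368.5 UMIs and 3453.5 genes, and the cells between 14422 UMIs. Mitochondrially encoded genes took a median of 3.59% of UMIs in Clu-positive and 4.89% in Clu-negative cells. The summed depth was 2045768 UMIs in Clu-positive and 1207082 in Clu-negative cells. Scrublet, a doublet caller, marked 556 of 6946 cells of the library, among them 8 Clu-positive and 6 Clu-negative cells, which were kept. Libraries shared between 4 and 20 barcodes in pairs, and 2 of the 252 cells had a barcode that also occurs in another library.

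Clu itself (chromosome 14, 65968483 to 65981547, plus strand, mm10) is given as a description, since it chose the cells. Per 10000 UMIs it ran from 5.20 to 76.6 with a median of 10.2 in Clu-positive cells, from 0.581 to 4.89 between, and from 0 to 1.66 in Clu-negative cells, of which 43 had no Clu UMI and 63 had 1. The nearest cell inside the upper limit had 5.20 and the nearest outside 4.89. Summed over cells, Clu stood at 1323 CPM (UMIs per 1000000) in Clu-positive, 275 between and 52.2 in Clu-negative cells. Cells of the same library chosen as immune cells, given as a comparison for free RNA in the droplets, stood at 182 CPM, and RNA of their own was not told apart from it. With every cell thinned to 5000 UMIs, a Clu UMI was found in 964 of 2627 immune cells (36.7%, exact interval 34.8 to 38.6), in 30 of 106 Clu-negative cells (28.3%, 20.0 to 37.9) and in 146 of 146 Clu-positive cells (97.5 to 100%). Clu-negative cells were limited to 1 Clu UMI and immune cells were not, so the rule itself lowers the share in Clu-negative cells. Of the immune cells 1983 of 2627 (75.5%) had 0 or 1 Clu UMI, and 133 of 2627 immune cells (5.06%) reached the limit of 5 per 10000. Median depths were 8848 UMIs in immune cells and 10368.5 in Clu-negative cells.

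The proximal tubule label was checked gene by gene, and the 2 groups met it in different ways. Gc, the vitamin D-binding protein, stood at 7.15 CPM in untreated proximal tubule cells, against 1097 for the endocytic receptor Lrp2 (megalin), 311 for the sulfate transporter Slc13a1 and 140 for Cubn (cubilin). In the cells of the rule Gc stood at 606 CPM in Clu-positive and 194 in Clu-negative cells, while Slc13a1 was 362 against 872, Lrp2 93.9 against 304 and Cubn 12.2 against 33.1. Of the Clu-positive cells 86 of 146 (58.9%, 50.5 to 67.0) passed the proximal tubule limit only because Gc counts toward it, against 7 of 106 Clu-negative cells (6.60%, 2.70 to 13.1). At least 1 UMI of Slc13a1, Lrp2 or Cubn was present in 118 of 146 Clu-positive and 105 of 106 Clu-negative cells. The limit thus admitted the groups through different genes, and results are also given for the 60 Clu-positive and 99 Clu-negative cells that pass the limit without Gc, an alternative chosen after the level of Gc was seen. Vcam1 was 1868 CPM in Clu-positive and 1074 in Clu-negative cells, and 1423 against 985 without Gc in the rule.

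**Figure D1:**
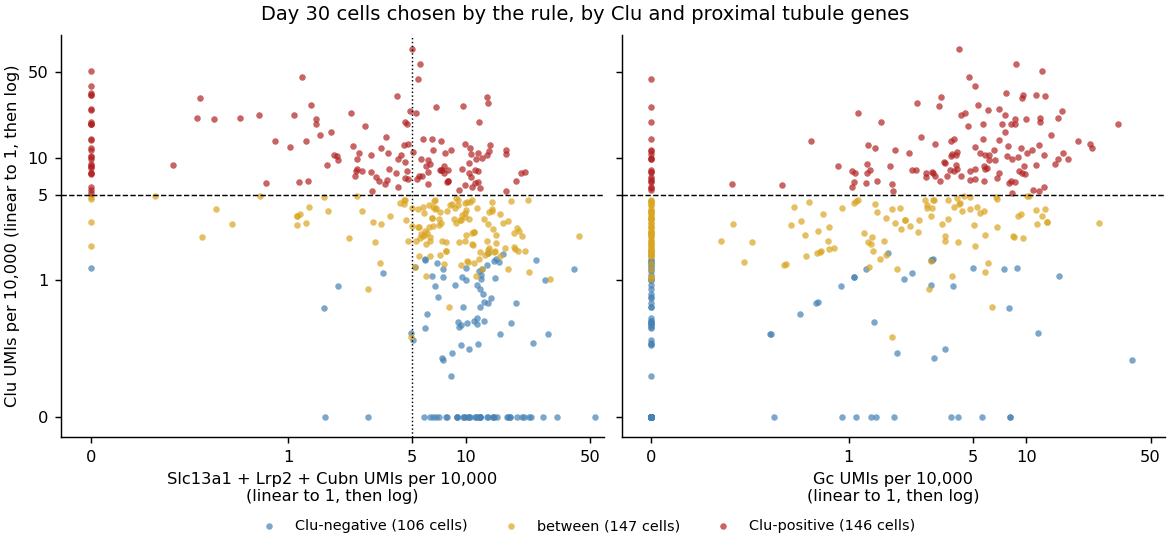
Each point is 1 of the 399 cells of the day 30 library that met the rule, with Clu UMIs per 10000 on the vertical axis and, on the horizontal axes, the sum of Slc13a1, Lrp2 and Cubn (left) or Gc (right) per 10000; axes are linear to 1 and logarithmic above. The dashed line marks the Clu limit of 5 and the dotted line a proximal tubule sum of 5 without Gc: 60 of 146 Clu-positive and 99 of 106 Clu-negative cells lie on or to the right of the dotted line.

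The 86 Clu-positive cells admitted by Gc and the 60 others differed beyond the gene that divides them. The 86 held Gc at 804 CPM, Vcam1 at 2119, Clu at 1418, the whey acidic protein family member Wfdc18 at 850 and the keratin Krt18 at 657. The 60 held Gc at 256, Vcam1 at 1423, Clu at 1154, Wfdc18 at 96.0 and Krt18 at 265 CPM. Gc, which admitted the 86, was lower in the 4 other sets of cells in which it was read: 11.8 CPM in 582 cells chosen by thick limb genes, 16.3 in 924 cells chosen by Ncam1 and Wnt16, 6.22 in immune cells and 8.42 in 126 proximal tubule cells without a Vcam1 UMI. Slc13a1 stood at 148 CPM in the 86 cells against 4.03, 2.08 and 9.49 in the thick limb, Ncam1 and Wnt16, and immune cells. Lrp2 stood at 41.3 CPM against 4.78, 10.4 and 16.9. Both are genes of the rule. The thick limb cells and the Ncam1 and Wnt16 cells were also picked for few UMIs of Slc13a1, Lrp2 and Cubn. Immune cells were picked for fewer than 5 UMIs per 10000 of these genes and Gc together. The choice of cells thus lowers Slc13a1 and Lrp2 in these sets, and Gc in immune cells. All these levels are a description.

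Of 7095 measured genes (at least 20 CPM in either group and at least 20 UMIs in all), 250 or 3.52% were higher and 258 or 3.64% lower in Clu-positive cells, both counts including genes of the rule. A gene was called where its level differed at least 2-fold and the counting interval of the ratio excluded 1. The median log2 ratio over all measured genes, with 10 CPM added to each level, was 0.03. Without Gc in the rule, 211 of 7183 genes (2.94%) were higher and 186 (2.59%) lower, with a median of 0.01. Cells between the limits stood between the groups for 224 of 248 higher genes (90.3%) and 236 of 255 lower genes (92.5%), genes of the rule left out. This is a description, since the genes were chosen for the gap between the outer groups. In untreated proximal tubule cells 215 of the 248 higher genes (86.7%) stood below their Clu-negative level, as did 79.2% of all measured genes. Of the lower genes 156 of 258 (60.5%) stood above their Clu-negative level there, as did 20.8% of all measured genes.

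Among the 15 genes named as higher in Clu-positive cells, those with most UMIs were Wfdc18, Krt18, Lcn2, Tspan8 and Plat. Lcn2 (lipocalin-2, an iron-chelator-binding protein released by injured tubules; chromosome 2, 32384633 to 32388252) stood at 444 CPM (416 to 474) in Clu-positive, 178 between and 67.1 (53.3 to 83.4) in Clu-negative cells, 6.62-fold (5.27 to 8.42). Per cell it ran from 0 to 43.0 per 10000 with a median of 1.51 in Clu-positive cells and from 0 to 7.96 with a median of 0 in Clu-negative cells, so the ranges overlapped. After thinning, 82 of 146 Clu-positive (56.2%) and 27 of 106 Clu-negative cells (25.5%) had a Lcn2 UMI. Immune cells stood at 71.3 CPM, near the Clu-negative level. Without Gc in the rule the ratio was 7.46 (5.70 to 9.90).

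Wfdc18 had the highest log2 ratio, 578 against 77.9 CPM or 7.42-fold, but its UMIs were spread unevenly: 79 of 146 Clu-positive cells had none and the 10% of cells with most of it held 77.0% of them. Its ratio was 1.52 (1.08 to 2.14) without Gc in the rule, which is short of the 2-fold limit. Nlrp10, a member of the NOD-like receptor family, stood at 113 CPM (99.3 to 129) in Clu-positive, 37.1 between and 9.11 (4.55 to 16.3) in Clu-negative cells, 12.4-fold, and 9.85-fold without Gc in the rule. It was 5.14 CPM in immune cells, 7.02 in thick limb cells, 34.2 in the Ncam1 and Wnt16 cells and 0.740 in untreated proximal tubule cells. Plat (tissue plasminogen activator) was 329 against 57.2 CPM, 5.76-fold and 4.62-fold without Gc in the rule. Cyp1b1, a monooxygenase of xenobiotics and steroids, was 126 against 19.9 CPM, 6.34-fold and 5.53-fold.

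The rest of the 15 included genes of the epithelial surface and of defence. Tspan8, a tetraspanin, stood at 366 against 76.2 CPM, 4.80-fold, and Krt18 at 515 against 125 CPM, 4.12-fold (3.47 to 4.92). Ehf, an epithelial ETS transcription factor, was 109 against 19.1 CPM, and Serpinb1a, an inhibitor of neutrophil proteases, 85.5 against 13.3 CPM. Cxcl5, a neutrophil-attracting chemokine, was 66.0 against 8.28 CPM, 7.97-fold and 9.92-fold without Gc in the rule. The adaptor subunit Ap1s2 was 87.5 against 14.9 CPM and the adhesion receptor Adgra1 63.5 against 9.11 CPM. Gabrp, a GABA receptor subunit, rested on 75 UMIs in Clu-positive and 3 in Clu-negative cells, a ratio of 14.8 (4.86 to 73.1). It stood at 373 CPM in thick limb cells.

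Of the 15, 3 were not called without Gc in the rule, Wfdc18 among them. Hp (haptoglobin, 45.0 against 4.97 CPM) had a ratio of 9.05, and of 2.82 (0.957 to 9.29) without Gc in the rule. Mmp7 (matrilysin, 107 against 16.6 CPM) had ratios of 6.43 and 0.648 (0.245 to 1.55). Mmp7 stood at 161 CPM in the 86 cells admitted by Gc and 10.8 in the 60 others. The other 12 of the 15 were still called higher without Gc in the rule. In the cells of thick limb genes Ehf (177 CPM), Tspan8 (576), Lcn2 (703), Gabrp and, barely, Adgra1 (64.1) stood above their Clu-positive level, and in the Ncam1 and Wnt16 cells Cyp1b1 (190 CPM), Gabrp (43.7) and Adgra1 (66.3). Other epithelial cells of the library thus held these genes at such levels too.

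**Figure D2:**
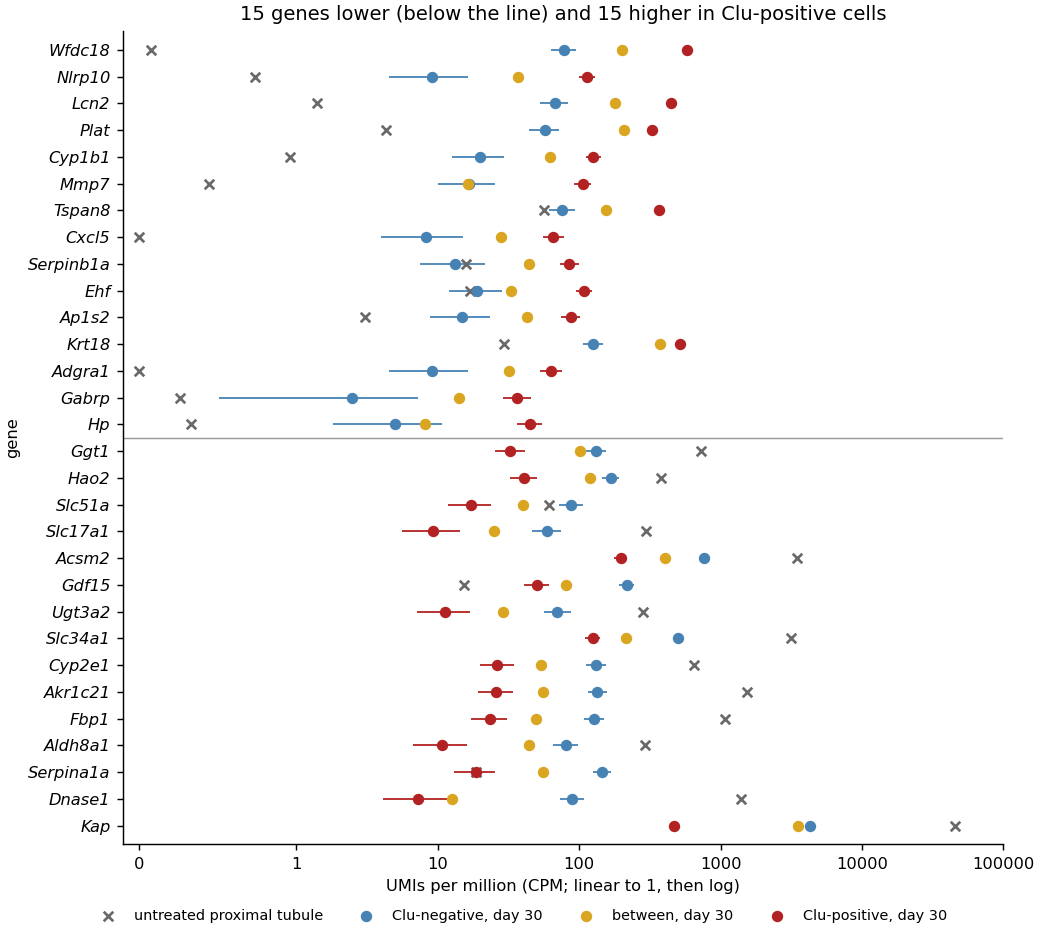
Levels in CPM (horizontal axis, linear to 1 and logarithmic above) of the 15 genes named as higher (above the line) and the 15 named as lower (below it) in Clu-negative, between and Clu-positive cells of day 30 and in untreated proximal tubule cells; bars are exact 95% Poisson intervals of the Clu-positive and Clu-negative levels. Between cells lie between the other 2 groups for every gene drawn but Mmp7 (16.3 CPM, against 16.6 in Clu-negative cells).

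Lower in Clu-positive cells were transport and metabolic genes of the healthy proximal tubule. Slc34a1, the sodium-phosphate transporter NaPi-2a (chromosome 13, 55398187 to 55415592, plus strand), stood at 125 CPM (110 to 141) in Clu-positive, 216 between and 503 (464 to 545) in Clu-negative cells, a ratio of 0.249 (0.214 to 0.288). It was 3139 CPM in untreated proximal tubule cells and 23.4 in immune cells. Per cell its median was 0 in Clu-positive and 2.32 per 10000 in Clu-negative cells, with highest values of 30.6 and 29.4, so single Clu-positive cells matched the highest Clu-negative ones. No Slc34a1 UMI was found in 93 of 146 Clu-positive and 24 of 106 Clu-negative cells. Without Gc in the rule its ratio was 0.496 (0.420 to 0.584).

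Of the list of brush border and basolateral transporters, rule genes left out, 15 of 24 measured genes were lower and 0 higher, with a median log2 ratio of -1.13 beside 0.03 for all genes. Without Gc in the rule 9 of 26 were lower and the median was -0.65. Besides Slc34a1, Fxyd2, a sodium pump subunit, stood at 828 against 1799 CPM, the fatty acid transporter Slc27a2 at 306 against 674, and the cation exporter Slc47a1 at 49.4 against 140 CPM. These 3 had ratios of 0.617, 0.687 and 0.616 without Gc in the rule, short of the 2-fold limit. Slc4a4, the basolateral bicarbonate carrier (680 against 927 CPM), and the pump subunit Atp1b1 (593 against 881) were not called. Among the named genes of the exchange of urate, phosphate and bile acids, Slc17a1 was 9.29 against 59.6 CPM and Slc51a 17.1 against 87.8 CPM.

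Of the gluconeogenesis and amino acid list 8 of 15 measured genes were lower and 0 higher (median -0.91), and 5 of 16 without Gc in the rule (median -0.59). Fbp1, fructose-bisphosphatase, stood at 23.5 CPM (17.3 to 31.1) against 128 (108 to 149), a ratio of 0.184, and at 1080 CPM in untreated proximal tubule cells. Pck1, the entry enzyme of gluconeogenesis, was 37.1 against 114 CPM, 0.325, and missed the 2-fold limit without Gc in the rule, at 0.652. Kap, kidney androgen-regulated protein (chromosome 6, 133849851 to 133853762), had the largest gap, 470 against 4307 CPM, a ratio of 0.109. It was 45176 CPM in untreated proximal tubule cells and 306 in immune cells, so the Clu-positive level was near that of immune cells. Its UMIs were uneven, with 69.3% of those of Clu-negative cells in 10% of the cells, and per cell the medians were 2.24 and 7.49 per 10000.

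Enzymes of detoxification and small-molecule metabolism made up much of the rest of the 15 named as lower. Acsm2, a medium-chain acyl-CoA synthetase, stood at 197 against 765 CPM, a ratio of 0.257 (0.228 to 0.289), and in 52 of 146 (35.6%) against 85 of 106 cells (80.2%) after thinning. Akr1c21, a hydroxysteroid dehydrogenase, was 25.9 against 135 CPM, Cyp2e1 26.4 against 132, Aldh8a1 10.8 against 80.4, Hao2 41.1 against 168 and Ggt1 (gamma-glutamyl transferase) 32.8 against 132. Dnase1 had the lowest ratio, 0.0819 (0.0443 to 0.141), from 7.33 against 89.5 CPM. All 15 were also called lower without Gc in the rule, with ratios from 0.121 (Kap) to 0.496 (Slc34a1). For 12 of the 15 the untreated proximal tubule level was higher than the Clu-negative one. The exceptions were the stress cytokine Gdf15 (15.4 untreated, 218 in Clu-negative, 50.3 in Clu-positive cells), the protease inhibitor Serpina1a (18.7, 146 and 18.6) and Slc51a (61.4, 87.8 and 17.1).

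Markers of both parts of the proximal tubule were lower at day 30. Of the S1 and S2 markers, which mark the early proximal tubule, 7 of 8 were lower (median -1.41), and of the S3 markers of its late part 5 of 6 (median -1.07). Without Gc in the rule these were 4 of 8 (-0.82) and 2 of 9 (-0.58). With cells of at least 50 Kap UMIs per 10000 removed, 7 of 8 S1 and S2 markers (-1.60) but 0 of 4 S3 markers (-0.74) were lower. With cells of other segments' markers removed these were 5 of 7 (-1.25) and 1 of 5 (-0.86). The S1 and S2 markers summed to 313 CPM in Clu-positive, 1084 in Clu-negative and 235 in immune cells, against 6761 in untreated proximal tubule cells. The Clu-positive sum was close to that of immune cells, and without Gc in the rule it was 569.5 against 1142 CPM.

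Promoter sequences of lower genes are shown because the liver and kidney transcription factor HNF1 is a known activator of proximal tubule genes. They are the 250 bases before the RefSeq start (build GRCm38.p6), with the HNF1 half-site GTTAAT, on either strand, in capitals. They lie at chr13:55399398-55399647 (Slc34a1), chr13:4573825-4574074 (Akr1c21) and chr7:119554090-119554339 (Acsm2), all on the plus strand.
Slc34a1: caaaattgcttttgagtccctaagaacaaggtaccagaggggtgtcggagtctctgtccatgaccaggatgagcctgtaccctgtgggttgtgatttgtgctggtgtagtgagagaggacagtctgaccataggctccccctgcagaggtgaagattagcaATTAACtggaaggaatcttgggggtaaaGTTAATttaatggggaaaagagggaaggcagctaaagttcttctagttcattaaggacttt
Akr1c21: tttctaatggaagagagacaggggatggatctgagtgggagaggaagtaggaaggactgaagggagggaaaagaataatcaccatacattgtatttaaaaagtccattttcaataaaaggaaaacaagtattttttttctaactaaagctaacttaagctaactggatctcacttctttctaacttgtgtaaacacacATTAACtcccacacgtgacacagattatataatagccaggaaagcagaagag
Acsm2: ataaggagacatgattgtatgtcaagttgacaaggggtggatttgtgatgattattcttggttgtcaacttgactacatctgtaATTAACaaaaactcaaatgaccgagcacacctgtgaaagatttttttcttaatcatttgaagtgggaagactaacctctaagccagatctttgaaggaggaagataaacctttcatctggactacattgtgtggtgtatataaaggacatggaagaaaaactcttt
Slc34a1 holds the half-site 89 and 61 bases before its start, Akr1c21 at 52 and Acsm2 at 166 bases.

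The half-site was present in 27 of 185 lower genes with a listed promoter (14.6%), 11 of 185 higher genes (5.95%) and 283 of 5512 measured genes (5.13%), beside 7.49% of all 27025 genes in the table. Among the named genes 7 of 14 lower and 0 of 9 higher ones held it. The HNF4 half-site CAAAGT was in 26.5% of lower, 14.6% of higher and 12.8% of measured genes (14.1% of the table). The AP-1 motif TGANTCA was in 8.11, 5.95 and 5.13% (7.82% of the table). The NF-kappaB motif GGNNTTTCC was in 4.32% of lower, 11.4% of higher and 6.24% of measured genes (5.62% of the table). Among the named genes the HNF4 half-site was in 4 of 14 lower and 3 of 9 higher ones. There the AP-1 motif was in 1 of 14 and 1 of 9, and the NF-kappaB motif in 1 of 14 and 0 of 9. Both strands were searched, the motifs do not contain one another, and the spellings were settled after shares had been seen. These are matches of letters and not measured binding.

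As an example from the higher genes, Csf1, the macrophage growth factor, holds the NF-kappaB motif on the reverse strand 154 bases before its start, here in capitals (chr3:107760470-107760719, minus strand).
Csf1: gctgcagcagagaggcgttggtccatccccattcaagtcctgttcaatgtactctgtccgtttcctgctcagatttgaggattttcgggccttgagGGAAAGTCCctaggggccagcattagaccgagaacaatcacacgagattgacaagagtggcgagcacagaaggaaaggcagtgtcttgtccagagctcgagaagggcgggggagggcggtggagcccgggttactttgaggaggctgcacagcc
The same stretch holds the HNF4 half-site on the reverse strand 22 bases before the start, not in capitals here. Csf1 stood at 73.8 against 33.97 CPM, 2.17-fold, and at 1.08-fold without Gc in the rule.

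Genes of tubular injury were higher in Clu-positive cells: 12 of 25 measured members of that list were higher and 1, Gdf15, lower, with a median log2 ratio of 0.93, and 23 of 25 ratios were above 1. Without Gc in the rule 8 of 25 were higher and 1 lower (median 0.62). Spp1 (osteopontin) stood at 24269 CPM in Clu-positive, 17498 between and 11169 in Clu-negative cells, 2.17-fold and 2.55-fold without Gc in the rule. The per-cell values of Spp1 ran from 9.37 to 1263 and from 3.20 to 642 per 10000, so the groups overlapped over most of their range. Krt8, the partner of Krt18, was 1249 against 584 CPM, the intermediate filament Vim 514 against 189 and the actin-binding Tmsb4x 7673 against 3165. These 3 had ratios of 1.54, 1.65 and 1.78 without Gc in the rule and were then not called. S100a6 (2056 against 1229 CPM) and S100a11 (1686 against 1052) were not called in the comparison itself.

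The failed-repair list, which marks the Vcam1 state as a whole, held few called genes: 2 of 19 measured genes were higher and 1 lower (median 0.37). The monocyte chemokine Ccl2 stood at 469 against 178 CPM (2.63-fold) and the actin-binding Tpm1 at 914 against 403 (2.27-fold), while the growth factor Nrg1 was 34.7 against 70.4 CPM. Ccl2 was 1.86-fold without Gc in the rule. The protease Adamts1 (597 against 397 CPM) and Dcdc2a (450 against 379) were not called.

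Of the list of NF-kappaB targets and chemokines 5 of 18 measured genes were higher and 0 lower (median 0.44), and 4 of 18 without Gc in the rule. Tnfaip2, a TNF-induced gene, stood at 240.5 CPM in Clu-positive, 124 between and 69.6 in Clu-negative cells, 3.46-fold and 3.16-fold without Gc in the rule. The inhibitor Nfkbia (539 against 349 CPM) and the chemokine Cxcl16 (325 against 258) were not called. Of complement and acute phase genes, C4b stood lower at 9.29 against 24.9 CPM, and was not called at 0.616 without Gc in the rule. C3, the central component, was 745 against 469 CPM and not called.

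Matrix and adhesion genes were mostly not called. Of the matrix list 3 of 20 were higher and 1 lower (median 0.41). Tnc, tenascin-C of provisional matrix, stood at 74.8 against 18.2 CPM (4.10-fold) and the protease inhibitor Timp2 at 212 against 88.6 (2.39-fold, and 1.94 without Gc in the rule). Col4a3, a chain of mature basement membrane, was lower at 45.5 against 118 CPM, 0.384 and 0.524 without Gc in the rule. Of junction and adhesion genes 4 of 20 were higher (median 0.62): Epcam at 910 against 349 CPM, the desmosomal Dsp at 65.5 against 24.02, the integrin Itga3 at 35.7 against 14.9 and N-cadherin (Cdh2) at 40.1 against 19.9. Only Dsp of these 4 was called without Gc in the rule, at 2.36-fold. Of growth factor genes 3 of 14 were higher and 1 lower (median -0.01). The co-receptor Nrp1 stood at 231 against 107 CPM and Tgfb2 at 91.4 against 43.9, the latter not called without Gc in the rule (1.41-fold). The lower one, Areg, an EGF receptor ligand, stood at 10.3 against 20.7 CPM, with UMIs in 4 and 5 cells after thinning. Its direction turned when thinned (log2 ratio 0.067).

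In several lists the groups did not separate by the size rule. No measured gene was called in the lists of oxidative phosphorylation (30 measured, median -0.18), immediate-early genes (19, -0.10), heat shock chaperones (14, 0.09), the unfolded protein response (17, -0.05), YAP and TAZ targets (14, 0.20), interferon response (16, 0.09), class I and II antigen presentation (11, -0.25), lysosome and iron (18, -0.18) and clusterin receptors (5, -0.17). Shifts short of the size rule remained in some of them. Ratios were below 1 for 27 of the 30 oxidative phosphorylation genes and above 1 for 3. The summed ratio was 0.860 (0.843 to 0.876) for that list and 0.827 (0.810 to 0.845) for lysosome and iron. It was 1.27 (1.19 to 1.36) for YAP and TAZ targets. For the lists that follow, the shares over all measured genes were 3.52% higher and 3.64% lower. Of fatty acid oxidation genes 3 of 25 were lower, all acyl-CoA synthetases of the Acsm family, and 1 was higher (median -0.20). Without Gc in the rule 1 of 25 was lower and 0 higher (median -0.12). Acadm (246 against 291 CPM) and Acadl (288 against 267) were not called. Of the p53 and senescence list 1 of 21 was higher, near the share of all genes: the inflammatory caspase Casp4 (71.4 against 33.1 CPM). Without Gc in the rule 1 of 20 was higher and 2 lower (median -0.20), and with Kap-rich cells removed 0 of 21 were called. Of proximal tubule transcription factors 1 of 10 was lower, the lipid regulator Ppara at 14.2 against 29.8 CPM (0.660 and not called without Gc in the rule), and Maf (258 against 384) and Pax8 (165 against 189) were not called. Of 7 measured cell cycle genes 3 were higher, Mcm3, Mcm6 and Tyms, at 21.5 to 30.8 CPM, with 0 of 7 called when cells were thinned to 5000 UMIs and 0 of 5 without Gc in the rule.

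**Figure D3:**
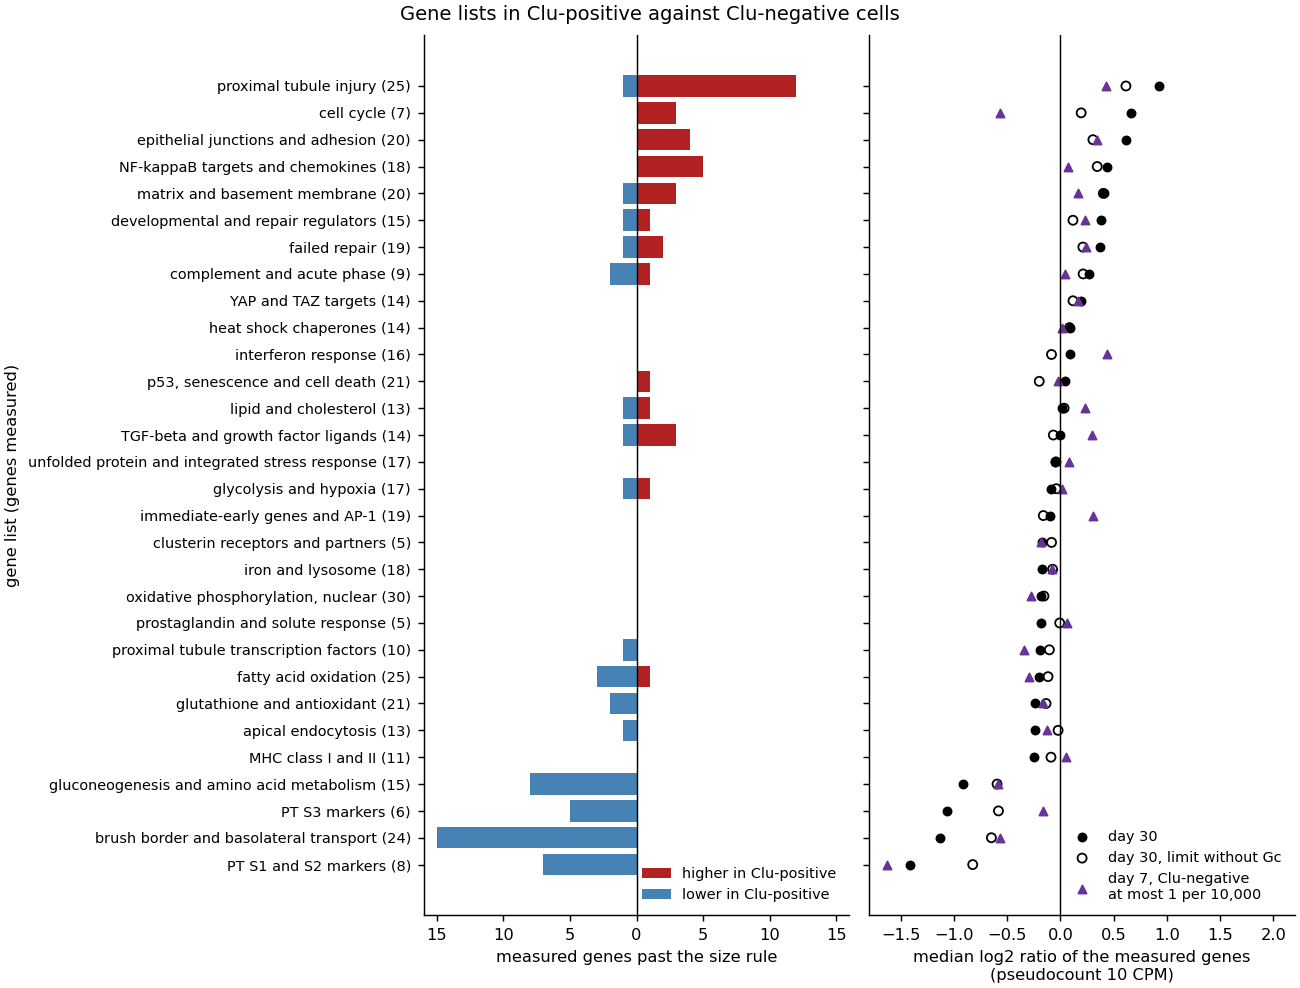
Left, the number of measured genes of each list called higher (red) or lower (blue) in Clu-positive against Clu-negative cells at day 30; right, the median log2 ratio of each list at day 30 (filled), at day 30 without Gc in the rule (open) and at day 7 (triangles). Transport, gluconeogenesis and the proximal tubule segment lists lie at the negative end, from -0.91 to -1.41 at day 30, and move to between -0.58 and -0.82 without Gc in the rule.

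Markers of other cell types were read as sums, beside the sums in immune cells. Thick limb markers summed to 210 CPM in Clu-positive, 266 in Clu-negative and 246 in immune cells, with 2 of 3 measured markers uncalled and Cldn10 lower (83.6 against 171 CPM, not called at 0.758 without Gc in the rule). Distal tubule markers summed to 173, 103 and 119 CPM, with the magnesium channel Trpm6 higher at 61.6 against 16.6 CPM. Principal cell markers summed to 208, 236 and 106, intercalated markers to 99.2, 118 and 198, and thin limb markers to 483, 672 and 256 CPM. The intercalated pump subunit Atp6v1g3 stood at 25.4 against 57.2 CPM, with UMIs in 4 and 2 cells after thinning. Its direction turned when thinned (log2 ratio 0.35) and in 4 other settings. The summed distal markers were 1.68-fold (1.37 to 2.08) and the summed thick limb markers 0.790-fold in Clu-positive cells.

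Parietal epithelial markers, leaving out Vcam1, summed to 1022 CPM in Clu-positive, 698 in Clu-negative and 407 in immune cells. Ncam1 (64.5 against 25.7 CPM) and the hyaluronan receptor Cd44 (258 against 106) were higher and the chemokine scavenger Ackr3 lower (16.6 against 41.4). The last 2 were not called without Gc in the rule, at 1.60 for Cd44 and 0.590 for Ackr3. Cldn1 (185 against 161) and Akap12 (289 against 149) were not called. Urothelial markers summed to 271 against 161 CPM beside 82.3 in immune cells, with Fxyd3 higher at 23.95 against 2.49. Podocyte markers summed to 109 against 61.3 CPM, with Wt1 at 59.6 against 20.7. Immune cells stood at 382 CPM for the podocyte markers, above both groups. Pericyte and smooth muscle markers summed to 399.9 against 190.5 CPM, with Acta2 (80.7 against 29.0) and Tagln (153 against 43.1) higher; immune cells stood at 245. Macrophage markers summed to 2289 against 2985 CPM beside 34167 in immune cells, with Ptprc lower at 32.3 against 72.1, a call lost without Gc in the rule (0.634). Neutrophil markers summed to 39.6 against 98.6 CPM beside 90.8 in immune cells, with G0s2 lower (20.5 against 46.4). S100a8 stood at 9.29 against 26.5 CPM, with UMIs in 7 and 5 cells after thinning. Its direction turned without the 5% of cells with most of it (log2 ratio 0.52) and in 4 other settings. Fibroblast markers summed to 129.5 against 141 CPM beside 333 in immune cells, with Postn higher at 47.4 against 14.9. Markers at 0 in both groups included Tmem207 of the thick limb, Clic3 of podocytes, Gsdmc2 of urothelium, Retnlg and Ly6g of neutrophils, Lum and C7 of fibroblasts, Nkg7, Gzma, Gzmb, Cd8a and Cd4 of T and NK cells, and Cd79a and Ms4a1 of B cells. The part of these markers, of Gc and of depth in the differences was not tested.

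Within the Clu-positive cells the levels were also read by Clu, in 72 cells with 5 to below 10 Clu UMIs per 10000, 47 with 10 to below 20 and 27 with 20 or more. Lcn2 stood at 323, 383 and 902 CPM in that order, Ehf at 73.5, 93.7 and 235, and Nlrp10 at 83.2, 137 and 158. Slc34a1 stood at 195, 59.9 and 41.5 CPM and Acsm2 at 261, 154 and 88.6. Krt18 did not follow this order, at 569, 470 and 443 CPM, nor did Plat, at 360, 326 and 246. Both stood above their Clu-negative level of 125 and 57.2 CPM in each of the 3 classes. The share of cells that passed the proximal tubule limit without Gc fell from the lowest to the highest Clu class. The classes were not read without Gc in the rule, and the part of Gc in these orders was not tested.

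The same rule was applied to the day 7 library, whose cells did not choose the day 30 genes. It held 467 cells, of which 142 were Clu-positive and 17 had 0 or 1 Clu UMI. Without Gc in the rule 79 and 16 of these remained, so Gc admitted the groups unequally at day 7 too. Since the lowest depth there was 18390 UMIs in Clu-positive cells, 1 UMI is a lower rate than at day 30, and cells with at most 1 Clu UMI per 10000 (45 cells) were used in its place, a choice made after the number of cells was seen. Of 6747 measured genes 185 (2.74%) were higher and 119 (1.76%) lower. With 0 or 1 UMI as the limit, 300 of 6817 (4.4%) were higher and 196 (2.88%) lower. Of the 248 genes higher at day 30, 165 were measured at day 7, 141 of them (85.5%) had a ratio above 1, beside 48.4% of all measured genes, and 50 were called higher and 1 lower. Of the 255 lower genes 172 were measured, 161 (93.6%) had a ratio below 1, beside 51.6% of all, and 47 were called lower and 0 higher. Both days share the rule with Gc, and its part in these shared directions was not tested.

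Among the named genes 8 of the 15 higher and 7 of the 15 lower were called in the same direction at day 7. Lcn2 stood at 536 against 62.2 CPM (8.61-fold), Plat at 342 against 142 (2.41-fold) and Slc34a1 at 56.8 against 310 (0.183). Fbp1 was 13.6 against 105 CPM (0.129) and Acsm2 282 against 675 (0.418). Kap did not differ to that extent at day 7, at 645 against 841 CPM, and Cxcl5 stood at 96.5 against 97.7, or against 226 in the 17 cells with 0 or 1 Clu UMI, where it was called lower. Wfdc18 was 43.0 CPM in Clu-positive cells and had no UMI in the 45 others. S1 and S2 markers were lower for 7 of 8 (median -1.63), transporters for 6 of 20 (-0.57) and gluconeogenesis genes for 6 of 13 (-0.59), with 0 higher in each. Of the S3 markers 0 of 4 were lower and 0 higher at day 7 (-0.16). Injury genes were higher for 6 of 26 (0.43). The interferon list had 7 of 20 higher and 0 lower at day 7, where it had 0 of 16 at day 30; whether the days differ was not tested.

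**Figure D4:**
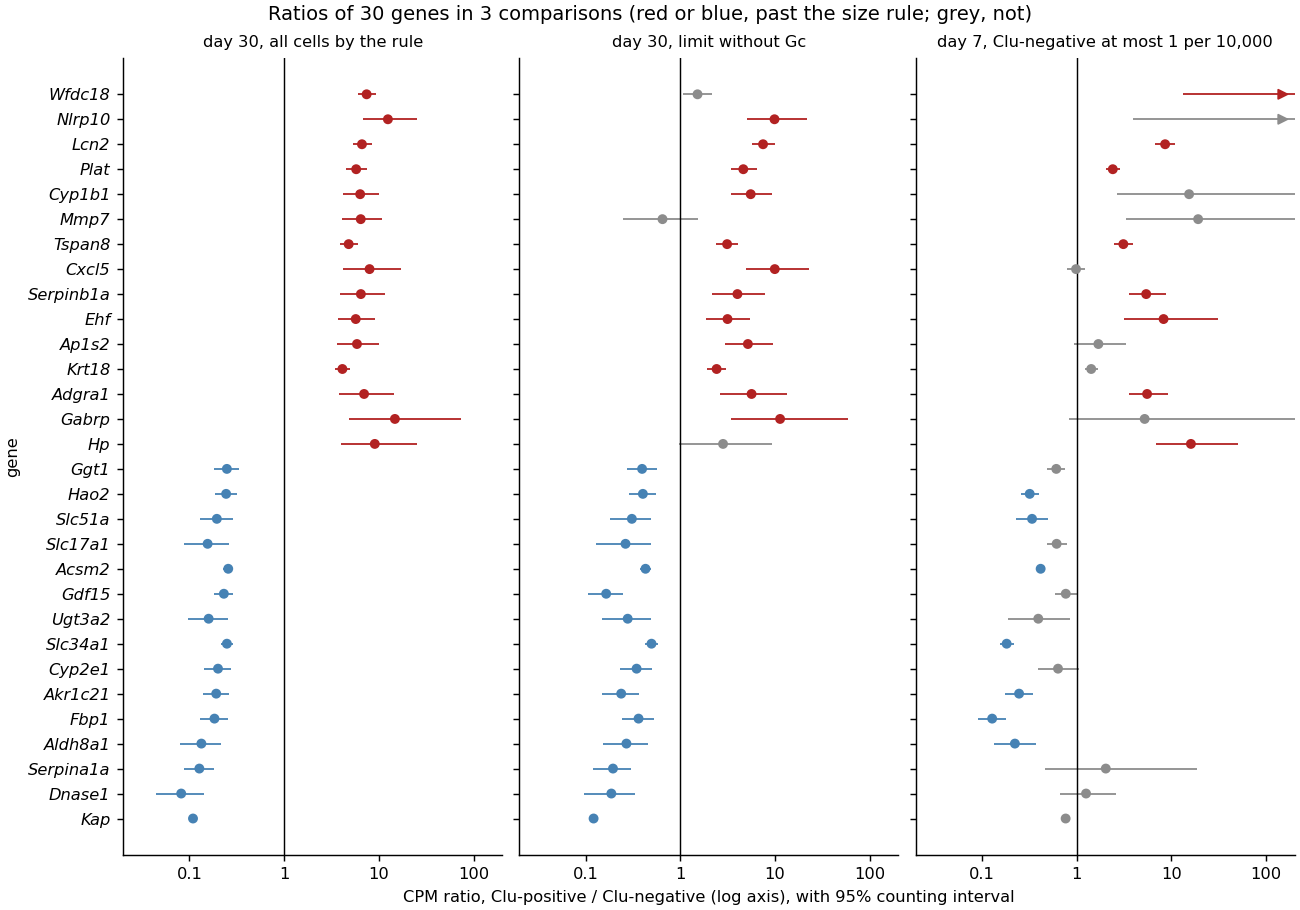
CPM ratio of Clu-positive to Clu-negative cells (logarithmic axis) with exact 95% counting intervals for the 30 named genes, at day 30, at day 30 without Gc in the rule and at day 7 with Clu-negative cells of at most 1 Clu UMI per 10000; coloured points pass the size rule, grey ones do not, and arrows stand for genes with no UMI in Clu-negative cells. All 15 lower genes stay below 1 without Gc in the rule, and Mmp7 alone crosses to 0.648 among the higher ones.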

How the data were processed

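Kidney cells sorted for GFP from 4 groups, 1 library each, were profiled with the 10x Genomics 3′ chemistry. The deposited matrices hold raw UMI counts per gene and barcode, not normalized. They were made, per the submitters' processing notes, with Cell Ranger 7.0.1 and mouse build mm10, whereas the file headers carry software version 3.0.1. The rule by which the authors kept barcodes and the annotation release are, in the sources used here, not stated.

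Barcodes under 500 UMIs, under 300 genes or above 50% mitochondrially encoded UMIs were left out. Counts of the 27998 genes were summed over the cells of a group and scaled to CPM. Ratios have exact conditional intervals, CPM exact Poisson intervals and shares of cells exact Clopper-Pearson intervals, at 95%. A gene was measured at 20 CPM in either group and 20 UMIs in both together, and called at 2-fold with an interval that excludes 1. The rule was tried on simulated Poisson counts of the group sums. These had no spread between cells, so the trial does not cover calls that arise from such spread. Shares of cells were taken after thinning each cell to 5000 UMIs (seed 0). With 1 library per group no test was possible. Median library depths were 4568.5, 8982, 23394 and 9201 UMIs in time order, and the lowest barcode of the day 30 library had 5976.

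Reference cells were untreated cells past the same proximal tubule and immune limits (3501), and in the day 30 library cells with at least 20 immune UMIs per 10000 (2627), at least 5 of Umod, Slc12a1 and Cldn16 (thick limb, 582) or at least 2 of Ncam1 and Wnt16 (924). Immune cells also had fewer than 5 UMIs per 10000 of Gc, Slc13a1, Lrp2 and Cubn together. The thick limb cells and the Ncam1 and Wnt16 cells had fewer than 20 immune UMIs per 10000. They were also limited to few UMIs of Slc13a1, Lrp2 and Cubn. The named genes are the 15 higher and 15 lower ones with the largest log2 ratio that were also called after thinning (rule, mitochondrial, ribosomal, predicted and pseudogenes left out), and from each of 45 lists up to 4 called and 2 uncalled members with most UMIs, with every called marker of another segment; some genes are not reported here, though list counts and sums include them. The members and lists were chosen with earlier results of these data known. Coordinates are from a GENCODE annotation of mm10 and promoters from RefSeq (GRCm38.p6). Doublets were called with Scrublet in scanpy 1.11.5 under Python 3.11.15, numpy 2.4.6, scipy 1.17.1 and pandas 2.3.3. Alternatives to depth, limits, doublets, weighting and scaling are given in the closing section.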

Additional observations from a re-analysis of the deposited data

How the results depend on the processing

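At day 30, 17 other settings were run for each of 162 named genes (rule genes left out). They were thinning, a window of 6000 to 15000 UMIs, and stricter limits on Clu, Vcam1, proximal tubule, immune and mitochondrial genes. Further ones were removal of doublets or of cells with other segments' markers, equal weight per cell, trimming, 2 scalings and no minimum level. A limit without Gc and the removal of Kap-rich cells were added after the data were seen. Looser limits on the cells were not run. Of 88 called genes 82 kept the sign of their log2 ratio in all 17 and 30 also kept the call. Signs changed for Areg (0.067 thinned), Lhx1 (0.15 without other segments' cells), and Mmp7 (-0.36) and Mcm3 (-0.23) without Gc. They changed for Atp6v1g3 when thinned (0.35), in the depth window (0.0539), with 0 Clu UMIs only (1.28), without other segments' cells (0.36) and without the 5% of cells with most of it (0.0350). They changed for S100a8 in the depth window (0.0539), at the stricter proximal tubule limit (0.49), with immune genes below 5 per 10000 (0.29), without other segments' cells (0.0260) and when trimmed (0.52). The cause was not tested.

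With no minimum CPM 394 genes were higher and 392 lower at day 30, since 10247 genes were then measured. In the other settings the totals stayed within 1.5 times of 250 and 258, but the genes called changed. Of the 250 higher and 258 lower genes, 153 and 162 were also called when thinned and 119 and 115 without Gc in the rule. Without other segments' cells 165 and 149 were, and 239 and 248 at the stricter mitochondrial limit. At day 7, 118 were higher and 115 lower when thinned, 303 lower against the 6 cells with 0 Clu UMIs, 191 higher without other segments' cells, and 185 higher and 119 lower with Clu-negative cells of at most 1 per 10000. No paired analysis was possible because each group has 1 library. Depth limits genes under about 20 CPM, and the 17 Clu-negative cells of day 7 rest on 407561 UMIs. Levels of Clu, Kap and Lcn2 in immune cells stand beside their values, and the part of free RNA was not tested.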

Other observations

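The cell cycle list had medians of opposite sign at day 7 and day 30. At day 7, 3 of 10 measured genes were lower and 0 higher in Clu-positive cells, with a median log2 ratio of -0.56 against 0.66 at day 30, where 3 of 7 measured genes were higher and 0 lower. Day 7 Clu-negative cells here had at most 1 Clu UMI per 10000. With cells thinned to 5000 UMIs 0 of 7 were called at day 30, and with Gc left out of the proximal tubule limit 0 of 5 measured genes were called at day 30, with a median of 0.19. The difference was not tested. With at most 1 Clu UMI per 10000 as the day 7 limit the gene called in opposite directions at the 2 times, singled out after its values were seen, was 2810417H13Rik, at 25.4 against 4.14 CPM at day 30 and 7.04 against 20.7 at day 7. With 0 or 1 Clu UMI as that limit there were 3 others, each higher at day 30 and lower at day 7: Cks1b (16.8 against 54.0 CPM at day 7), Cxcl5 (96.5 against 226) and Zmynd15 (19.9 against 49.1).

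By the same rule 23 cells were found at day 2 (9 Clu-positive, 4 Clu-negative) and 55 in the untreated library (1 Clu-positive, 49 Clu-negative), too few for levels by group. In the untreated library Clu-positive cells were thus 1 of 55, and at day 30 146 of 399. These shares are not alike in how cells were admitted. Of the 146, 86 passed only with Gc, which was low in untreated proximal tubule cells. Median depth was 3632 UMIs in untreated and 10368.5 in day 30 Clu-negative cells. The part of Gc and depth in the 2 shares was not tested.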
